A study of Mus musculus with 7 samples.

Results

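The genes described here encode the nuclear-encoded subunits of the oxidative phosphorylation machinery in mouse tumours. They were chosen by symbol: genes whose names begin with Nduf followed by a, b, c, s or v, with Uqcr, with Cox and a digit from 4 to 8, or with Atp5, together with Sdha, Sdhb, Sdhc and Sdhd, and whose raw counts summed to at least 70 over the 7 libraries. Of 24421 genes in the count table, 92 had such a name and 85 reached the minimum. These comprised 7 core and 28 accessory subunits of complex I, 7 complex I assembly factors of the Ndufaf name, 4 subunits of complex II, 8 of complex III, 14 of complex IV and 15 of ATP synthase. A further pair, Atp5s and Atp5sl, carry an Atp5 name without being counted as subunits. Cox7a2l, Ndufa4 and Ndufa4l2 were placed with complex IV.

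The 7 libraries came from tumours of 7 mice sampled at week 4. The control group was 3 mice given the control antibody anti-KLH with anti-PD-1, and the test group was 4 mice given anti-PD-1 together with anti-LAIR1. LAIR1 is an inhibitory receptor of leukocytes that binds collagen, and PD-1 is an inhibitory receptor of T cells, so the comparison asks what blocking LAIR1 adds where PD-1 is already blocked in both groups. The submitters describe 344SQ cells, a line from K-rasLA1/+p53R172H∆g/+ mice, placed under the skin of 129/Sv mice aged 6 to 8 weeks, and also lung tumours of KrasLSL-G12D/p53fl/fl mice started with adenoviral Cre at 3 to 4 months of age and treated from 2 months after that. Which of these models gave the 7 tumours, and the age and sex of single mice, are not stated in the labels, and the stated doses (10 mg/kg anti-LAIR, 8 mg/kg anti-PD-1) belong to the model under the skin. Control mouse names start with LOHM or KWM and every anti-LAIR1 mouse name starts with WTSV, so the naming series and the antibody cannot be told apart. Libraries are called control 1 to 3 and anti-LAIR1 1 to 4, numbers that only name them, and the values of a gene are given in that order. All p-values measure the spread between these mice.

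Oxidative phosphorylation passes electrons from NADH through complex I, and from succinate through complex II, to ubiquinone, then through complex III and cytochrome c to complex IV, which reduces oxygen. Complexes I, III and IV pump protons out of the mitochondrial matrix, and ATP synthase uses the return of those protons to make ATP. Most subunits are encoded in the nucleus and built together with a small set encoded by mitochondrial DNA, and in tumours the balance between this route and glycolysis is often examined.

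Library totals ran from 9879762 to 26255727 counts, with control 1 the deepest. The 85 members took 0.310% to 0.398% of the counts of a library. No mitochondrially encoded gene was among the gene symbols of the table (0 of 13 listed), so only the nuclear side of each complex was measured. CPM is a gene's count over the scaled library total, in the usual unit. Epithelial markers summed to 4312 to 5113 CPM in controls and 4280 to 5319 CPM in the anti-LAIR1 group. Cdh1, Krt8, Krt18 and Krt19 made up most of that sum. Epcam was at 11.9 to 26.6 CPM over the 7 libraries, while Cldn4, Cldn7 and Esrp1 reached at most 1.73, 0.527 and 1.53 CPM. Leukocyte markers summed to 281 to 325 CPM in controls and 371 to 452 CPM in the anti-LAIR1 group, and 12 of 12 had a positive fold change. Markers of striated muscle summed to 14.9 to 17.7 CPM in controls and to 134, 18.0, 98.4 and 131 CPM in anti-LAIR1 1 to 4. Of the 20 muscle markers, 8 had enough counts to be tested and 7 of those had a positive fold change, led by titin (Ttn), while Myh2, Myh4, Myl1, Pvalb and Myoz1 were at 0 in all controls. Fat cell markers were high in anti-LAIR1 2 alone, at 141 CPM against 8.91 to 30.7 CPM in the other 6 libraries. In a tumour sampled whole, fewer cells of a type and less RNA per cell cannot be told apart.

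No gene of the machinery differed between the groups past the threshold of the test. None of the 85 members passed an adjusted p of 0.05 in edgeR's quasi-likelihood test, where 0% of the 13545 genes tested were called, and 2 members (2.35%), Ndufaf3 and Uqcrb, had an unadjusted p under 0.05 against 5.15% of all genes. Both had positive fold changes, and 3.51% of all genes had such a p with a positive fold change. The number of members with such a p rested on single libraries. It was 0 without anti-LAIR1 3 and without anti-LAIR1 4, and also after thinning to the smallest total and with muscle level as a covariate. It was 1 without each control in turn and 3 without anti-LAIR1 1 or 2. Muscle level was high in anti-LAIR1 1, 3 and 4 and in no control. Here and below, that covariate and the antibody can therefore hardly be told apart. DESeq2 called 0 members where it called 54 of 13924 genes (0.388%), with 2 members at an unadjusted p under 0.05, and limma-voom called 0 members, with 1 at an unadjusted p under 0.05. The smallest adjusted p of any member in edgeR was 0.934. Log2 fold changes (anti-LAIR1 over control) ran from -0.16 for Ndufb2 to 0.52 for Ndufaf3, with a median of 0.03 against 0.00 over all genes tested. Positive values were found for 54 members and negative values for 31, where 49.1% of all genes were positive.

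The intervals around these values were narrow. The 95% interval of the fold change lay within 2-fold in both directions for 83 of 85 members (97.6%), where 81.7% of all genes tested and 94.96% of the 4009 other genes of like expression had such an interval. The members outside that bound were the low-count Cox4i2 and Ndufb4. Within 1.5-fold lay the interval of 71 members (83.5%), against 62.7% of all genes and 79.9% of genes of like expression. The median biological coefficient of variation, the spread between libraries beyond counting error, was 0.144 for the members and 0.143 for the genes of like expression. A change of 2-fold or more was therefore outside the interval of 83 members, and the intervals of most members also held changes of a size below that.

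**Figure D1:**
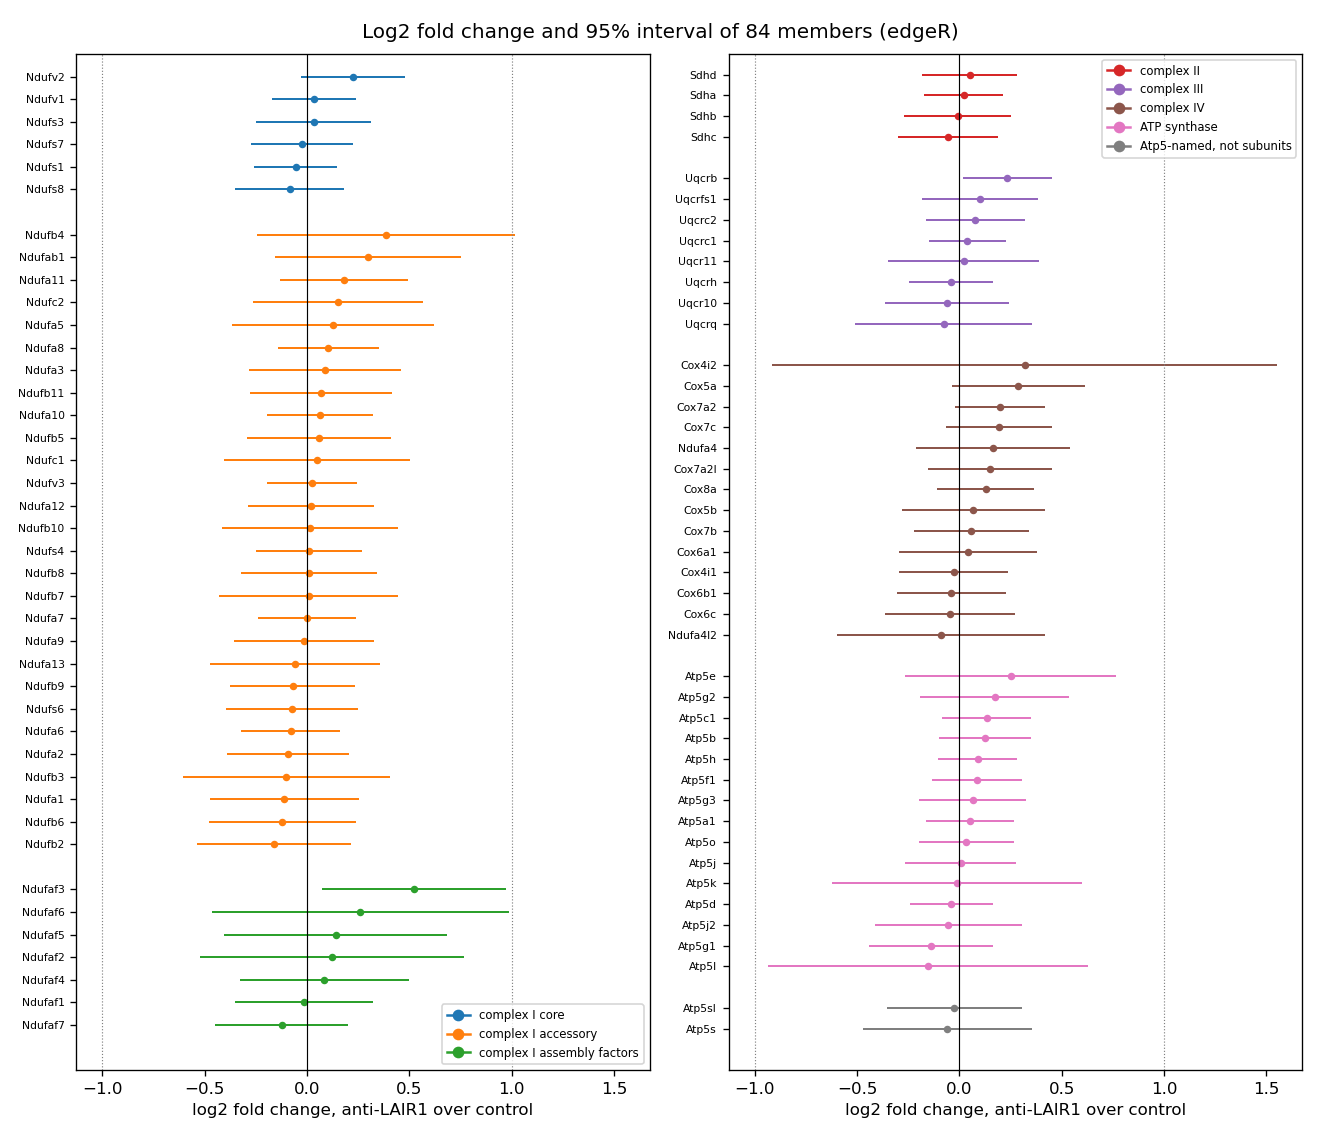
Log2 fold change of 84 of the 85 members (anti-LAIR1 over control, points) with its 95% interval from edgeR (bars), grouped and coloured by complex; dotted lines mark 2-fold in either direction. Intervals of Ndufaf3 and Uqcrb alone lie wholly above 0, and those of Cox4i2 and Ndufb4 alone cross a dotted line.

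Levels differed far more between genes than between groups. Per kilobase of transcript, and averaged over the 7 libraries, the highest member was Atp5b, the catalytic beta subunit of ATP synthase, at 258 CPM per kb, followed by Cox4i1 at 221 and Atp5a1, the alpha subunit, at 148. The lowest were Cox4i2 at 1.12, Ndufaf6 at 2.04 and Atp5l at 2.67 CPM per kb. The 7 assembly factors lay between 2.04 and 10.8 CPM per kb with a median of 3.77, below the medians of 29.3 for core and 20.8 for accessory complex I subunits. Assembly factors help to build complex I and are not kept in the finished enzyme. Class medians were 40.7 for complex II, 43.0 for complex III, 59.9 for complex IV and 52.3 CPM per kb for ATP synthase.

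**Figure D2:**
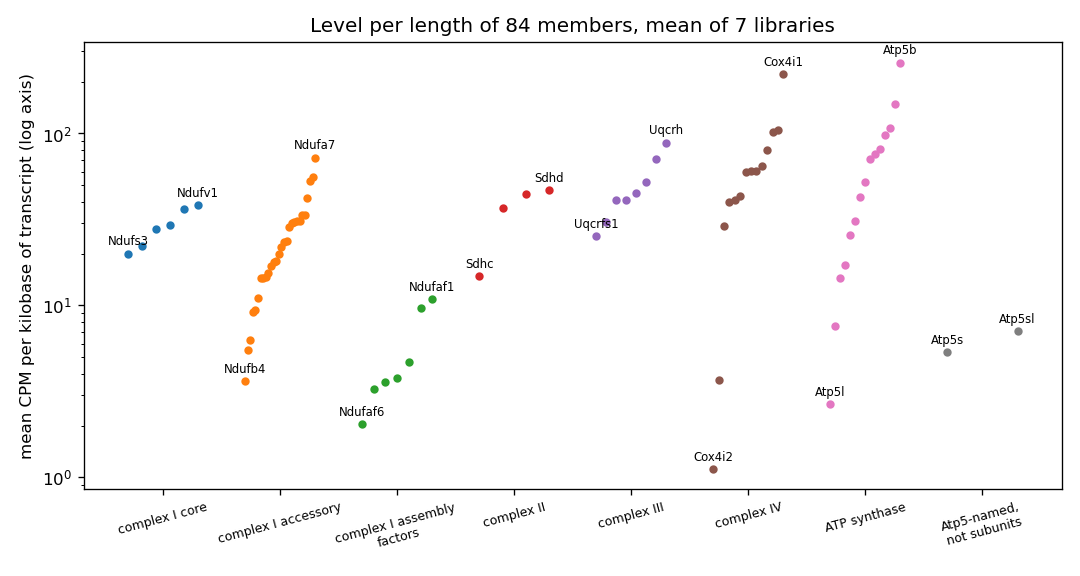
Mean CPM per kilobase of transcript over the 7 libraries on a log axis, 1 point for each of 84 members, in columns by complex, with the lowest and highest member of each column named. Atp5b stands highest at 258 and Cox4i2 lowest at 1.12 CPM per kb, and the assembly factors lie lower than most subunits.

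Sequence shared between genes limits some of these levels. Of the 85 members, 29 shared at least 1 stretch of 100 bases of their transcript with another annotated gene or pseudogene, and 20 shared over 10% of such stretches. Shared stretches made up 100% of the Atp5g2 transcript, 77.0% of Atp5o and 69.0% of Atp5l. The Atp5o partners were Donson, Gm5436 and another annotated entry named Atp5o, so its share may not be wholly with other symbols. How reads with several matches were counted is not said in the sources used here. Ndufs5, an accessory subunit of complex I, was listed at 0 counts in all 7 libraries. In the same libraries BC002163, a gene that GENCODE annotates as a processed pseudogene and that shares 23.0% of the Ndufs5 stretches, was given 131, 82 and 66 counts in controls and 120, 86, 49 and 92 counts in the anti-LAIR1 group. Both genes are named because of these counts. Of the 500 Ndufs5 stretches 115 are shared, and why the gene was listed at 0 was not tested. Its 0 is not read here as a measure of its expression.

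Promoters of nuclear respiratory chain genes are known for sites of the factors NRF1, ETS family members and YY1, and the members' promoters were searched for them. A RefSeq table for GRCm38.p6 held the 300 bases from 250 before to 50 after the start for 71 members (77 promoters). The NRF1 motif, a palindrome of 10 bases shown in capitals in the Ndufaf4 sequence printed with the promoters, was found on either strand in 7 of 77 promoters (9.09%), against 0.971% of all 32851 promoters and 1.95% of those of genes tested. The ETS motif CCGGAAG was in 17 (22.1%), against 8.86% of all promoters and 16.5% of those of genes tested. The YY1 motif AAGATGGC was in 12 (15.6%), against 2.75% and 4.17%. YY1 matches lay in 6 of 28 promoters of complex I accessory subunits, 1 of 5 of core subunits, 3 of 17 of ATP synthase and 2 of 3 of the Atp5-named pair. None lay in the 10 promoters of complex IV, the 5 of complex III, the 3 of complex II or the 6 of assembly factors. Of the 12 promoters with a YY1 match, 10 had it reaching past the start, whereas 5 of 7 promoters with an NRF1 match and 13 of 17 with an ETS match had one wholly before it. The 12 include both promoters of Atp5sl, which hold the same YY1 site, past the start in the earlier entry and before it in the later. The last 3 letters of the ETS motif are the first 3 of the YY1 motif, so 1 stretch can match both. Atp5j was the member with a match to each, but at separate positions, -61 for ETS and -88 for YY1. A match is a description of sequence and not of a bound site.

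The upstream part of 3 member promoters is printed to show such matches, 1 for NRF1 and 2 for ETS. In each, under 10 of the 250 bases fall in annotated exons. Other promoters with an ETS match before the start, such as that of Atp5l, also met this limit, so it alone did not decide the choice. Each printed stretch runs 5′ to 3′ on the strand of its gene, from RefSeq GRCm38.p6, and capitals mark the motif. The Ndufaf4 stretch is chr4:24897833-24898082 on the plus strand, with the NRF1 motif at position -113 from the start. The Uqcr11 stretch is chr10:80406822-80407071 on the minus strand, with the ETS motif at -66. The Atp5e stretch is chr2:174464102-174464351 on the minus strand, with the ETS motif at -102 on the opposite strand to the gene.
Ndufaf4: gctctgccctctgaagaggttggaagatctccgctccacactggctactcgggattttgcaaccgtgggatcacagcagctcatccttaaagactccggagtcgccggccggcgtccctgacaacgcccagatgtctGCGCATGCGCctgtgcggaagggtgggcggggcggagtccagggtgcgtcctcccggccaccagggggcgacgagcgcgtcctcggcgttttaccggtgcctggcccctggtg
Uqcr11: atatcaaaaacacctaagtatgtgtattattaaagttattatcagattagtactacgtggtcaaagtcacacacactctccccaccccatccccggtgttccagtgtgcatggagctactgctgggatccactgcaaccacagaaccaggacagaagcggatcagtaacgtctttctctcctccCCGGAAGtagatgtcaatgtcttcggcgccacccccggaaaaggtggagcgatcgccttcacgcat
Atp5e: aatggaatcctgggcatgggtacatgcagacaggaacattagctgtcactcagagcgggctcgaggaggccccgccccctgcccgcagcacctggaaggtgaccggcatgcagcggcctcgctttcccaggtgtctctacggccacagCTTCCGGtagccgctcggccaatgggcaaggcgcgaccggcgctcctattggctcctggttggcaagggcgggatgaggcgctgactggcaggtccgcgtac

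Median log2 fold changes were near 0 for members with and without these motifs. The median was 0.09 for the 7 genes with an NRF1 match and 0.03 for the 64 without. It was 0.01 for the 17 genes with an ETS match and 0.06 for the 54 without, and 0.01 for the 11 genes with a YY1 match and 0.05 for the 60 without. Of the genes whose stretch is printed, Ndufaf4 had a log2 fold change of 0.09 (SE 0.18), Uqcr11 of 0.02 (SE 0.16) and Atp5e of 0.25 (SE 0.23). These medians are descriptions over genes that share libraries.

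The core subunits of complex I carry its electron path from NADH to ubiquinone. Of the 7, 4 had a positive and 3 a negative log2 fold change, with a median of 0.01. Their summed level was 338, 363 and 380 CPM in controls and 351, 353, 365 and 387 CPM in the anti-LAIR1 group. Ndufv2, a subunit of the NADH-binding module, had the smallest p of the class. Its CPM was 32.9, 36.1 and 34.5 in controls and 35.6, 38.0, 41.2 and 46.4 in the anti-LAIR1 group, a log2 fold change of 0.23 (SE 0.11, 95% interval -0.02 to 0.47). Control 2 lay above the lowest anti-LAIR1 library, and the adjusted p in edgeR was 0.980. The lowest log2 fold change of the class was -0.08 (SE 0.12) for Ndufs8, an iron-sulfur subunit.

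Accessory subunits surround the core of complex I and stabilise it. Of the 28, 18 had a positive and 10 a negative log2 fold change, with a median of 0.01, and their summed level was 500, 559 and 568 CPM in controls and 511, 508, 570 and 604 CPM in the anti-LAIR1 group. Without control 1 the positive count was 8 of 28, so the direction of this class rested on that library. Ndufb4 had the largest log2 fold change, 0.39 (SE 0.28), with CPM of 2.10, 3.52 and 3.46 in controls and 3.16, 3.92, 3.71 and 4.79 in the anti-LAIR1 group. The groups overlapped, control 1 was lowest, and 33.4% of the Ndufb4 transcript stretches are shared with Ndufb4c, annotated as a pseudogene. Ndufab1, the mitochondrial acyl carrier protein, had the smallest p of the class, with CPM of 6.81, 6.36 and 7.53 in controls and 6.91, 7.92, 11.1 and 7.99 in the anti-LAIR1 group, a log2 fold change of 0.30 (SE 0.20). Anti-LAIR1 3 alone stood above 8 CPM. Ndufb2 had the lowest log2 fold change of all members, -0.16 (SE 0.17). Its CPM was 7.13, 7.18 and 6.62 in controls and 6.78, 6.12, 6.48 and 5.59 in the anti-LAIR1 group, with 1 anti-LAIR1 library above the lowest control. The accessory subunit with the highest CPM, Ndufa10, was at 47.0 ± 4.45 in controls (SD, n = 3) and 49.1 ± 5.38 in the anti-LAIR1 group (SD, n = 4).

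The 7 assembly factors held the largest fold change of the 85 members. Ndufaf3, which acts with Ndufaf4 in building the ubiquinone-binding part of complex I, lies at chr9:108565587-108567436 (GRCm38). Its CPM was 4.67, 3.82 and 4.28 in controls and 5.27, 5.85, 6.30 and 7.12 in the anti-LAIR1 group, so every anti-LAIR1 library stood above every control. The fold change was 1.44 (95% interval 1.05 to 1.96), or 0.52 on the log2 scale (SE 0.20), with an unadjusted p of 0.0263 and an adjusted p of 0.934 in edgeR. No 100-base stretch of Ndufaf3 is shared, and its log2 fold change stayed between 0.42 and 0.60 in all 18 alternatives run. Its partner Ndufaf4 was at 13.2, 11.6 and 14.9 CPM in controls and 11.4, 13.6, 12.8 and 18.2 CPM in the anti-LAIR1 group, overlapping widely. Ndufaf7, a mitochondrial methyltransferase, had the lowest value of the class, -0.12 (SE 0.14). Over the class, 5 log2 fold changes were positive and 2 negative, with a median of 0.12, and the summed level was 60.9, 61.6 and 58.3 CPM in controls against 56.6, 61.9, 58.8 and 72.7 CPM. Only anti-LAIR1 4 exceeded the controls by more than 1 CPM in that sum.

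Complex II, succinate dehydrogenase, is shared with the citric acid cycle and is encoded wholly in the nucleus. It was the class with the smallest differences: summed levels were 262, 272 and 291 CPM in controls and 283, 263, 284 and 277 CPM in the anti-LAIR1 group, so every anti-LAIR1 library lay within the control range. The sum was 0.559% higher in the anti-LAIR1 group. The flavoprotein subunit Sdha had the highest CPM of the class. Its CPM was 122, 133 and 130 in controls and 140, 119, 128 and 132 in the anti-LAIR1 group, a log2 fold change of 0.02 (SE 0.08, 95% interval -0.17 to 0.21). The membrane anchors Sdhc and Sdhd had log2 fold changes of -0.06 (SE 0.11) and 0.05 (SE 0.10), the lowest and the highest of the 4.

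Complex III passes electrons from ubiquinol to cytochrome c. Its 8 nuclear-encoded subunits summed to 306, 341 and 336 CPM in controls and 327, 323, 360 and 347 CPM in the anti-LAIR1 group, with 5 positive and 3 negative log2 fold changes and a median of 0.03. Uqcrb, a small subunit that takes part in ubiquinone binding and in assembly (chr13:66900576-66905350, GRCm38), was the other member with an unadjusted p under 0.05. Its CPM was 33.1, 36.8 and 33.9 in controls and 40.1, 37.3, 42.5 and 43.0 in the anti-LAIR1 group, so the groups did not overlap. The gap between control 2 and anti-LAIR1 2 was narrow. The fold change was 1.18 (95% interval 1.01 to 1.36), or 0.23 on the log2 scale (SE 0.10), with an unadjusted p of 0.0345 and an adjusted p of 0.944 in edgeR. Pseudogenes share 15.8% of its stretches. With the level of muscle markers as a covariate its log2 fold change was 0.14, the lowest of the 18 alternatives. That level, a mean log2 CPM of 8 markers, was -0.21, -0.57 and 0.27 in controls. In anti-LAIR1 1 to 4 it was 2.47, -0.46, 2.45 and 2.48, so the covariate nearly follows the groups. The part of muscle in the Uqcrb value was not tested further. The core subunit Uqcrc1, with the highest CPM of the class, was at 84.6 ± 2.90 in controls (SD, n = 3) and 87.0 ± 5.34 in the anti-LAIR1 group (SD, n = 4). Uqcrq had the lowest log2 fold change, -0.08 (SE 0.19).

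Complex IV, cytochrome c oxidase, transfers electrons to oxygen, and its nuclear-encoded subunits surround a core made by the mitochondrion. Of the 14 members placed here, 10 had a positive and 4 a negative log2 fold change, with a median of 0.10. Without control 1 the median was 0.03. Summed levels were 543, 594 and 654 CPM in controls and 583, 589, 657 and 674 CPM in the anti-LAIR1 group, and control 3 lay above 2 of the 4 anti-LAIR1 libraries. Cox7a2, the form of subunit 7a found in most tissues, had the smallest p of the class. Its CPM was 33.9, 39.0 and 37.3 in controls and 44.5, 39.8, 43.8 and 40.1 in the anti-LAIR1 group, a log2 fold change of 0.20 (SE 0.10, 95% interval -0.02 to 0.41). The groups did not overlap, and the adjusted p in edgeR was 0.980. Its gene span overlaps that of Tmem30a, and the sources used here do not say whether counting used strand.

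Across the 85 members, the anti-LAIR1 libraries lay wholly above the controls for 4 (4.71%), against 3.06% of all genes tested, and wholly below for 0, against 2.51%. These 4 were Ndufaf3, Uqcrb, Cox7a2 and Cox7c. Cox7c, named because of that separation, was at 36.7, 42.2 and 41.5 CPM in controls and 42.8, 42.4, 54.1 and 44.2 CPM in the anti-LAIR1 group, a log2 fold change of 0.19 (SE 0.11), and 44.4% of its stretches are shared. Its highest control and its lowest anti-LAIR1 library lay close together. Cox5a, another nuclear-encoded subunit of complex IV, was named for its size of difference after the values were seen. Its CPM was 28.7, 36.1 and 39.1 in controls and 38.8, 36.4, 49.0 and 44.5 in the anti-LAIR1 group, a log2 fold change of 0.29 (SE 0.14), with control 3 inside the anti-LAIR1 range.

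**Figure D3:**
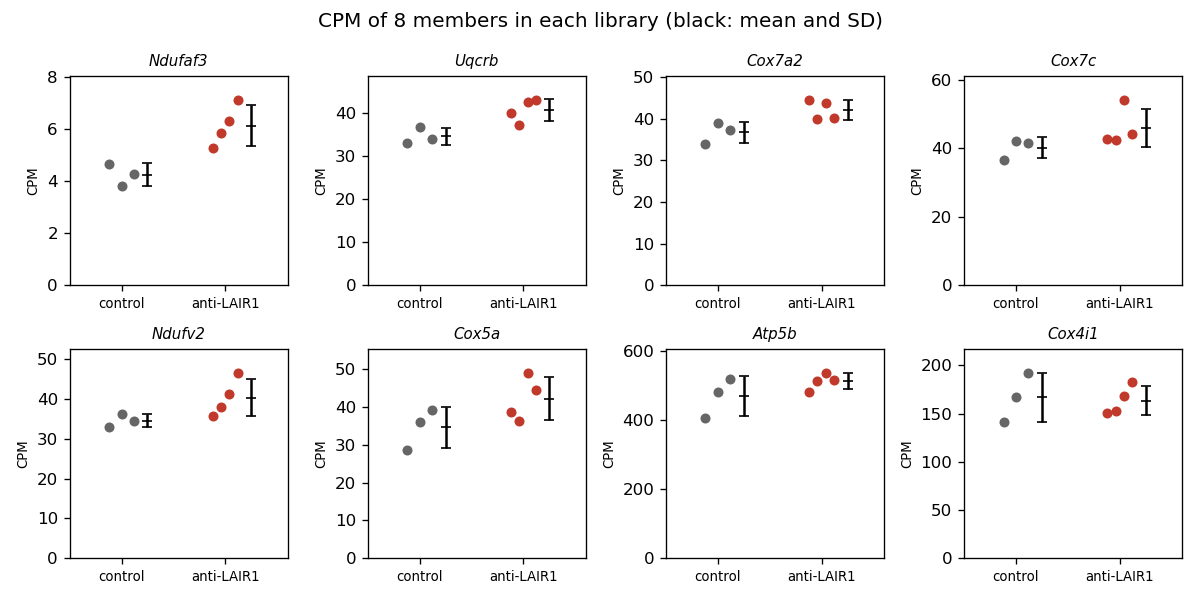
CPM of 8 members in each library (grey, 3 controls; red, 4 anti-LAIR1 libraries; black, mean and SD), on axes that start at 0. Groups are separate for Ndufaf3, Uqcrb, Cox7a2 and Cox7c, barely so for Cox7c, and overlap for Ndufv2, Cox5a, Atp5b and Cox4i1.

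Several complex IV subunits exist as a common form and a form of muscle, lung, testis or hypoxic cells. Cox4i1, the common form of subunit 4, was at 142, 167 and 192 CPM in controls and 151, 153, 168 and 182 CPM in the anti-LAIR1 group, a log2 fold change of -0.03 (SE 0.12). Its lung form Cox4i2, also induced by low oxygen, had 21, 13 and 3 counts in controls and 17, 22, 5 and 8 counts in the anti-LAIR1 group. Per length that was 0.163% to 0.972% of the sum of both forms, and the interval of its log2 fold change, -0.91 to 1.55, was the widest of the members. Ndufa4, a subunit once assigned to complex I, was at 25.2 ± 4.83 CPM in controls (SD, n = 3) and 28.1 ± 4.70 CPM in the anti-LAIR1 group (SD, n = 4). Its hypoxia-induced counterpart Ndufa4l2 was at 3.56 ± 0.497 and 3.35 ± 0.280 CPM, a log2 fold change of -0.09 (SE 0.23), and made up 4.76% to 7.61% of the pair per length. Of 9 hypoxia markers in the table, 2 had a positive and 7 a negative log2 fold change, with a median of -0.20, and their sum was 1347 to 1775 CPM in controls and 1248 to 1551 CPM in the anti-LAIR1 group.

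The muscle and testis forms stayed below the count minimum and were not tested. Cox6a2 and Cox7a1 are the heart and skeletal muscle forms of subunits 6a and 7a. Cox6a2 had 1, 0 and 2 counts in controls and 0, 0, 3 and 8 counts in the anti-LAIR1 group, and Cox7a1 had 7, 1 and 0 counts and 8, 8, 4 and 2 counts. Anti-LAIR1 4, with the most Cox6a2 counts, was among the 3 libraries with 98.4 CPM or more of muscle markers, while anti-LAIR1 1, with 134 CPM, had 0. Cox8b, a form of muscle and brown fat, had 0 counts in all controls and 0, 4, 0 and 1 counts in the anti-LAIR1 group. Its 4 counts fell in anti-LAIR1 2, the library with the high fat cell markers. Brown fat markers summed there to 2.33 CPM, inside the control range of 1.94 to 3.05. Among them, Ucp1 was at 0.266 CPM in anti-LAIR1 2, 0.0748 CPM in control 2 and 0 elsewhere, from 5 counts in all. Elovl3 was at 0 CPM in anti-LAIR1 2 and 1.12 CPM in control 3. Cox6b2, a testis form, had 3, 2 and 3 counts in controls and 0, 9, 1 and 1 counts in the anti-LAIR1 group. In every library, 5 of 6 male germ cell markers were at 0. The remaining marker, Prm1, had 14 counts in all. Its CPM was 0.0792, 0 and 0 in controls and 0.132, 0.266, 0.259 and 0.218 in the anti-LAIR1 group. Cox7b2 and Cox8c had 0 counts in all libraries, which allows up to 0.0287 CPM over the 7 together, for counting error only. What part muscle or fat in a tumour had in these few counts was not tested.

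The common forms of subunits 6a, 6b, 7b and 8 did not pass the threshold either, and the groups overlapped in each. Log2 fold changes were 0.04 (SE 0.15) for Cox6a1, -0.04 (SE 0.12) for Cox6b1, 0.06 (SE 0.12) for Cox7b and 0.13 (SE 0.10) for Cox8a. Their CPM was 36.4 ± 2.63 and 37.6 ± 6.84 for Cox6a1, 64.5 ± 8.54 and 62.7 ± 6.38 for Cox6b1, 39.3 ± 6.67 and 40.8 ± 1.71 for Cox7b, and 54.8 ± 5.58 and 60.0 ± 4.56 for Cox8a (controls and then anti-LAIR1, SD, n = 3 and n = 4).

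ATP synthase joins a catalytic head to a ring of c subunits turned by protons. Of its 15 members, 10 had a positive and 5 a negative log2 fold change, with a median of 0.05, and summed levels were 1185, 1356 and 1422 CPM in controls and 1318, 1356, 1464 and 1449 CPM in the anti-LAIR1 group. Control 1 was the lowest library of the 7. Atp5b, the catalytic beta subunit, was at 407, 482 and 521 CPM in controls and 481, 514, 537 and 518 CPM in the anti-LAIR1 group, a log2 fold change of 0.13 (SE 0.10, 95% interval -0.09 to 0.34). Atp5c1, the gamma subunit of the central stalk, had the smallest p of the class, with 78.7, 96.3 and 94.0 CPM in controls and 97.6, 92.7, 106 and 97.1 CPM in the anti-LAIR1 group, a log2 fold change of 0.13 (SE 0.09). In both genes the controls reached into the anti-LAIR1 range. Atp5e, the epsilon subunit, had the largest log2 fold change, 0.25 (SE 0.23). Its CPM was 5.50, 5.91 and 5.09 in controls and 9.02, 5.39, 5.44 and 6.32 in the anti-LAIR1 group, where anti-LAIR1 1 alone stood apart. Atp5l, subunit g of the membrane part, had the lowest, -0.15 (SE 0.35), from 1.05 to 1.94 CPM.

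The c subunit is encoded by 3 genes that give the same mature protein. Per length, Atp5g3 supplied 48.5% to 53.0% of the summed level in every library, Atp5g2 26.4% to 33.4% and Atp5g1 16.5% to 22.7%. The order was the same in all 7 libraries. Log2 fold changes were 0.07 (SE 0.11) for Atp5g3, 0.17 (SE 0.16) for Atp5g2 and -0.14 (SE 0.13) for Atp5g1. Since 100% of the Atp5g2 stretches and 48.1% of the Atp5g1 stretches are shared with other genes or pseudogenes, these shares depend on the unstated treatment of such reads. Atp5s and Atp5sl, the members not counted as subunits, had log2 fold changes of -0.06 (SE 0.18) and -0.02 (SE 0.14).

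The members varied between libraries in a shared way that did not follow the groups. Their summed level was 3219, 3573 and 3734 CPM in controls and 3458, 3480, 3780 and 3836 CPM in the anti-LAIR1 group, a mean of 3509 ± 263 (SD, n = 3) against 3638 ± 197 (SD, n = 4) and a difference of 3.69%. Control 3 lay above anti-LAIR1 1 and 2. Control 1 was the lowest library for 28 members (32.9%), where it was lowest for 15.7% of all genes tested, and anti-LAIR1 1 was lowest for 25 (29.4%, against 15.8%). Anti-LAIR1 4 was highest for 24 members (28.2%, against 19.1%), anti-LAIR1 3 for 21 (24.7%, against 12.5%) and control 3 for 18 (21.2%, against 14.3%). Control 1 is also the deepest library, and whether depth had a part in its values was not tested. With all libraries thinned to the smallest total, 50 of 84 members with a value were positive. Thinning keeps each gene's expected share of its library, so that count cannot decide the question. The number of positive members rested on single libraries: it was 37 of 85 without control 1, 39 without anti-LAIR1 4 and 65 without control 3. The medians in these settings were -0.02, -0.01 and 0.08. It was 40 by limma-voom with quality weights and 39 with muscle level as a covariate, with medians of -0.01 and -0.02.

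**Figure D4:**
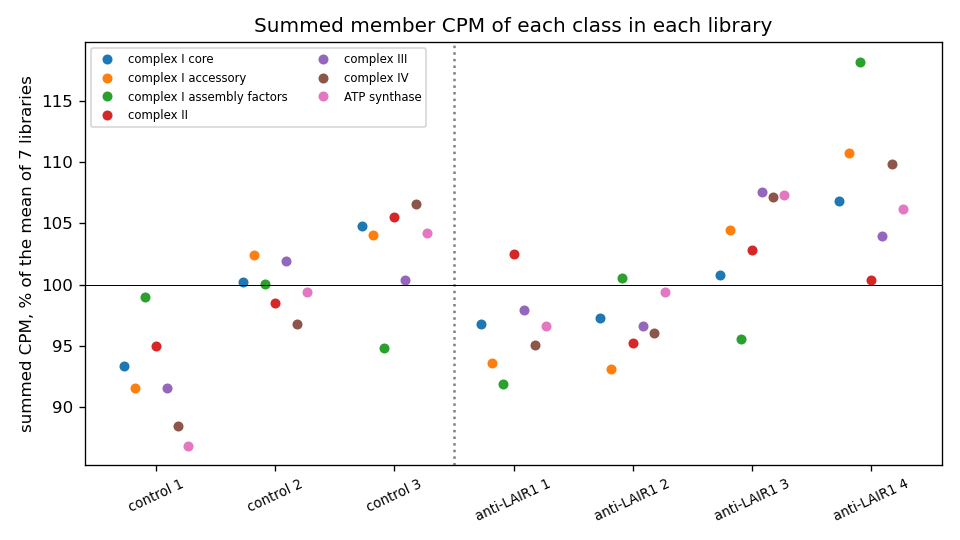
Summed CPM of each class in each library as percent of the class mean over 7 libraries, 1 point per class, controls left of the dotted line. In control 1 all 7 classes lie below 100% while in anti-LAIR1 4 all 7 lie above it, and control 3 reaches the range of anti-LAIR1 3.

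Other mitochondrial gene groups gave values of the same size, and 0 of their genes passed an adjusted p of 0.05 in edgeR. Of 8 tested genes of cytochrome c and complex III partners, 4 were positive and 4 negative, with a median log2 fold change of 0.02, and the smallest p belonged to Ttc19, a complex III assembly protein, at 0.19 (SE 0.13). Of 34 assembly factors other than the Ndufaf genes, 14 were positive and 20 negative, with a median of -0.04. The smallest p there belonged to Coa4, a complex IV assembly factor, whose CPM was 6.14, 6.06 and 5.29 in controls and 8.03, 7.05, 8.98 and 7.27 in the anti-LAIR1 group. Its log2 fold change was 0.42 (SE 0.17), with an unadjusted p of 0.0378 and an adjusted p of 0.947 in edgeR. Of 18 citric acid cycle genes, 13 were positive and 5 negative, with a median of 0.03, and citrate synthase (Cs) was at 0.18 (SE 0.10). Of 76 mitochondrial ribosomal protein genes, 44 were positive and 32 negative, with a median of 0.01, and Mrps5 was at 0.24 (SE 0.13). Of 14 regulators of mitochondrial biogenesis, 7 were positive and 7 negative, with a median of 0.00, and Tfam, which packages and transcribes mitochondrial DNA, was at -0.19 (SE 0.11).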

How the data were processed

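Poly(A) RNA of 7 mouse tumours was sequenced as directional single-end libraries, per the labels' protocols. The authors deposited raw read counts per gene symbol, made with Trim Galore, STAR 2.7.6 and featureCounts 2.0.1 on mm10, with edgeR 3.40.1 also named, per the submitters' processing notes. Neither the gene annotation, nor use of strand, nor the handling of multi-mapped reads is given there, and counts of near-identical or overlapping genes are uncertain: the gene spans of 29 members overlap another gene. Groups came from the labels' treatment field. The table held 0 blank genes and 0 columns without a sample.

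Counts were used as deposited and analysed in R 4.3.3 with edgeR 4.0.16: filterByExpr (minimum count 10), TMM scaling, robust quasi-likelihood fit, Benjamini-Hochberg adjustment over all 13545 genes tested, threshold 0.05. All 85 members passed the filter. CPM used TMM-scaled totals, with no prior count for single values and a prior count of 2 for log2 CPM. Depth ran from 9879762 to 26255727 counts, so that 3 counts, the limit a 0 allows, came to 0.114 to 0.304 CPM. DESeq2 1.42.0, limma-voom 3.58.1, other scalings and filters, thinning, muscle level as a covariate and leaving out each library were alternatives. The scripts were tested on simulated data.

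Transcript lengths and shared stretches came from GENCODE M21 (for each gene, the principal transcript of lower median length), coordinates and promoters from RefSeq GRCm38.p6, where 82 members matched by symbol and 3 by a synonym. The 14 members without a promoter entry included Atp5a1, Cox4i1, Cox4i2, Cox6c, Ndufa2, Ndufa4l2, Ndufaf6, Ndufb9, Ndufs1, Sdhc, Uqcrb, Uqcrc2 and Uqcrq. Genes of like expression are those within the interquartile range of the members' average log2 CPM.

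The members and lists were chosen with earlier results of these data known. Members named were those past the threshold, then in each class the smallest p, the largest and smallest log2 fold change and the highest CPM, then tissue isoforms with their counterparts, and from each related list the smallest p. Ndufs5, Cox7c, Cox5a, Atp5a1, Atp5j, Atp5o, Ndufaf4, Ndufaf6 and Uqcr11 were named outside this rule, after their values or sequences were seen. Of the other marker lists, fibroblast markers summed to 524 to 774 CPM in controls and 509 to 948 CPM in the anti-LAIR1 group, and keratinocyte markers to 25.0 to 126 and 13.5 to 24.8 CPM. Values of 1 member are not reported here by name and are left out of the plots of single members.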

Additional observations from a re-analysis of the deposited data

Results flagged for a closer look

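In 43 groups of 4 anti-LAIR1 libraries (the named and tissue-form members and the class sums), the highest or lowest library was compared with its nearest neighbour: a gap above Dixon's 95% critical share of the whole range was found in 3, and chance gives about 1 in 20. Ndufa4 was at 35.1 CPM in anti-LAIR1 3, against 25.1 to 26.3 CPM in the other 3 libraries. Atp5g2 was at 14.7 CPM in anti-LAIR1 1, against 21.0 to 22.2 CPM in the others, and all of its transcript stretches are shared with other genes. Cox6b2, the testis form of a complex IV subunit, was at 0.599 CPM in anti-LAIR1 2, from 9 counts, against 0 to 0.0864 CPM in the others.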

How the results depend on the processing

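No paired analysis was possible because each library came from a different mouse, and the labels pair no control mouse with an anti-LAIR1 mouse. Members past the adjusted threshold were 0 in all 18 alternatives. Genes past it over the whole table were 54 by DESeq2 and 0 to 3 without single libraries, the 3 without anti-LAIR1 2. Positive members ran from 37 to 65, and their median log2 fold change from -0.02 to 0.08, without single libraries. Positive counts in the same settings were 8 to 20 for complex I accessory subunits, 2 to 5 for core subunits, 1 to 4 for complex II, 3 to 6 for complex III and 0 to 1 for the Atp5-named pair, and the complex IV median was 0.0313 to 0.150. The lowest accessory, complex II and complex III counts and the lowest complex IV median came without control 1, the lowest core count without anti-LAIR1 4. By limma-voom 8 accessory subunits, 1 complex II subunit and 1 of the Atp5-named pair were positive. With muscle level as a covariate 9 accessory, 2 core and 1 complex II subunits and 1 of the pair were positive, and the core median was -0.0436. Thinning gave 2 core subunits and 2 of the pair, and library totals 1 of the pair. Of 162 class medians checked, 2 moved by more than the spread and 25 differed in sign, all of them near 0. Of 556 values of 31 named members, 4 moved by 1 SD or more and 33 differed in sign. The cause was not tested. The CPM filter and thinning left 84 members with a value. With 3 and 4 mice, the median interval spanned 0.30 on the log2 scale to either side, which limits what could be detected.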
